A study of Homo sapiens with 12 samples.

Results

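The tiles described here are 17 of the 23 protein fragments named as silencer tiles in a combinatorial recruitment screen, namely all whose source gene is none of 6 genes treated apart. They come from 16 source genes and occur in 3100 of the 9983 library members for which any read was counted. A member is an ordered pair of domains, written here as first position + second position, and it was included when either domain was one of these tiles. The files name each tile by the Ensembl identifier of its source gene and a tile number, and the tables used here did not pair these identifiers with gene symbols, so the identifiers are kept. ENSG00000174197 supplied 2 tiles (34 and 238), and the other 15 genes supplied 1 each. Of the 3100 members, 710 paired a tile with a control domain, 492 with a silencer tile of any gene and 1898 with another domain. The controls were 21 domains named as fragments of dystrophin (11 DMD tiles) or as random sequences (10). Per the labels, 6 of the 50 repressors had design errors and were dropped by the submitters; which ones was not stated, so all 17 tiles were kept, and a tile without effect may be among those 6.

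All libraries came from K562, a human leukaemia line, infected with a lentiviral pool of fusions of the doxycycline-dependent DNA-binding protein rTetR. In the activation screen K562 + pDY032 cells received 1000 ng/mL doxycycline for 2 days. In the repression screen K562 + pJT039 cells received it for 5 days, and in the memory screen, marked as unused in the labels, the same line had 5 days with the drug and 5 days without. Each screen had 2 replicates, infected separately at about 600 cells per member, and each replicate was split into a bound and an unbound fraction, which gives 12 libraries. Per the labels, the cells of all 12 libraries also had 7 days of blasticidin. Bound was read as the fraction with the reporter on, and the way both fractions were parted is not stated in the labels.

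Transcriptional repressors act by bringing corepressor complexes to DNA, which remove activating histone marks, deposit silencing marks or compact chromatin. Recruiting a short protein fragment through rTetR asks whether that fragment is enough to switch a reporter, and recruiting it beside a partner asks which of both prevails. A silencing that persists after the recruiter has left the DNA is called memory and is typical of KRAB domains, which recruit a corepressor that spreads heterochromatin.

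Values are log2 of bound over unbound reads relative to pairs of 2 control domains, so a negative value means a smaller share of cells with the reporter on. Library totals ran from 612999 reads (activation, unbound, replicate 2) to 55121999, and the median count of a member with a tile ran from 38 in that shallowest library to 2555.5. A test in a screen needed 5 reads in one of the fractions and 50 in their sum, in each replicate, which 2847 of the 3100 passed in the activation screen, 2842 in the repression screen and 2932 in the memory screen. ENSG00000127124 tile 78 and ENSG00000174197 tile 34 kept the fewest, with 109 and 123 members in the activation screen. Replicate scores of the tile members correlated with Pearson r = 0.731 over members in activation, 0.843 in repression and 0.301 in memory, where members are not independent. Scaling on total counts instead of control pairs moved the 17 single-tile effects by median amounts of -1.06 (activation), 1.85 (repression) and 0.50 (memory), so signs hold only relative to control pairs.

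Beside control partners, 10 of the 17 tiles fell in the repression screen and the other 7 did not pass the test in either direction. Among all 79 domains that are not controls 73.4% were called lower and 5.06% higher. ENSG00000111642 tile 38 had scores of -3.33 and -4.26 in the 2 replicates. Its summed reads next to controls were 39145 bound and 26704 unbound in replicate 1 and 18104 bound and 75642 unbound in replicate 2. ENSG00000061273 tile 33, which did not pass, had 271864 bound and 21205 unbound reads in replicate 1 and 141913 and 45364 in replicate 2, with scores of -0.020 and -0.0065. Thus the bound share was depleted in both replicates for the first tile and level with control pairs for the second.

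The edgeR quasi-likelihood test, with Benjamini-Hochberg adjustment over the 79 domains, put ENSG00000111642 tile 38 at -3.40 (standard error, SE, 0.16; adjusted p = 4.4e-19), or 10.5-fold lower than control pairs. ENSG00000084093 tile 101 followed with -3.15 (SE 0.16) from scores of -3.00 and -3.67, and ENSG00000102974 tile 12 with -3.14 (SE 0.15) from -3.16 and -3.95. These 3 neighbours in the order lie within 2 SE of each other. ENSG00000170604 tile 0 fell by 2.91 on the log2 scale (SE 0.15; scores -2.99 and -3.23) and ENSG00000076108 tile 118 by 2.85 (SE 0.15; scores -2.98 and -3.19). ENSG00000127124 tile 78, with 25 control-partnered members past the filter, fell by 2.69 (SE 0.17), but with the tile in the second position only its effect was -1.48 and did not pass (edgeR, adjusted p = 0.17). The tile with the next rank was ENSG00000069812 tile 10, with -2.40 (SE 0.16; scores -2.46 and -2.24). ENSG00000141644 tile 47 reached -2.21 (SE 0.15; scores -1.83 and -2.15) and ENSG00000174197 tile 34 -2.02 (SE 0.17; scores -1.64 and -2.28). A gap separated these from ENSG00000088305 tile 10, the weakest tile that passed, at -0.83 (SE 0.14; scores -0.71 and -0.51; 1.78-fold lower).

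The 7 tiles that did not pass lay between -0.27 and 0.29 in the repression screen, inside or near the spread of the controls. These were ENSG00000130706 tile 26 (-0.27), ENSG00000188779 tile 4 (-0.23), ENSG00000085224 tile 242 (-0.21), ENSG00000061273 tile 33 (0.02), ENSG00000168769 tile 132 (0.08), ENSG00000174197 tile 238 (0.12) and ENSG00000205571 tile 13 (0.29). Of the 21 control domains, 20 lay between -0.28 and 0.26 and the remaining one, DMD tile 31, at -1.31. With edgeR 0 of the 17 tiles were called higher, and 0 were higher at an unadjusted p under 0.05, while DESeq2 called 1 higher, ENSG00000205571 tile 13. Leaving out either repression replicate kept all 10 lower calls. Without replicate 1 ENSG00000188779 tile 4 also passed as lower (-0.54), and without replicate 2 ENSG00000205571 tile 13 passed as higher (0.47).

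In the activation screen the same tiles had smaller effects. Of the 17 tiles, 8 fell and 1 rose by edgeR, against 35.4% lower and 30.4% higher among the 79 domains. The tile that fell most was ENSG00000170604 tile 0, with scores of -0.87 and -0.74 and an effect of -0.69 (SE 0.14; adjusted p = 8.7e-05). ENSG00000127124 tile 78 stood at -0.64, ENSG00000174197 tile 34 at -0.62, ENSG00000111642 tile 38 and ENSG00000084093 tile 101 at -0.52 each, ENSG00000102974 tile 12 at -0.51, ENSG00000076108 tile 118 at -0.47 and ENSG00000069812 tile 10 at -0.45. All 8 also fell in the repression screen. ENSG00000205571 tile 13 rose by 0.50 (SE 0.16; scores 0.17 and 0.39), but not when DMD tile 31 was left out of the controls (0.23, adjusted p = 0.23). DMD tile 31 is the control that stood apart in this screen, at 2.06, while the other 20 controls lay between -0.17 and 0.68. Without replicate 1 only 2 of the 17 tiles were called, ENSG00000170604 tile 0 and ENSG00000174197 tile 34. Without replicate 2 the calls were again 2, ENSG00000170604 tile 0 lower and ENSG00000130706 tile 26 higher (0.55), so ENSG00000170604 tile 0 alone kept its call under both. Across the 17 tiles, which share their control partners, the activation and repression effects correlated with Pearson r = 0.91 and Spearman rho = 0.84.

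After 5 days without doxycycline the tiles stood much closer to control pairs. In the memory screen 9 tiles fell and 0 rose by edgeR (0 higher at an unadjusted p under 0.05, and 0 higher by DESeq2), against 36.7% lower and 1.27% higher among the 79 domains. ENSG00000076108 tile 118 was lowest, with scores of -1.22 and -0.997 and an effect of -1.06 (SE 0.14; adjusted p = 4.6e-07), and ranked 6 from the bottom among the 79 domains. The other 8 lay between -0.70 (ENSG00000141644 tile 47) and -0.38 (ENSG00000111642 tile 38). Leaving out memory replicate 1 or 2, or testing scores with limma, left 1 called tile each time, ENSG00000076108 tile 118.

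The difference between memory and repression was tested in the same edgeR fit. It was positive for 9 of the 17 tiles and negative for 0 (0 at an unadjusted p under 0.05, and 0 by DESeq2), against 59.5% and 1.27% of the 79 domains. ENSG00000111642 tile 38, the lowest tile in repression, moved furthest, by 3.02 (SE 0.21; from -3.40 to -0.38). ENSG00000076108 tile 118 moved by 1.79 (SE 0.20; from -2.85 to -1.06). ENSG00000088305 tile 10 was the exception among the 10 tiles that fell in repression, with a difference of 0.35 (SE 0.20; adjusted p = 0.14) between -0.83 and -0.48. All 9 calls were kept without each replicate of both screens. The screens also differ in their libraries and in 5 further days of growth, and these parts cannot be told apart from the removal of doxycycline.

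The place of a tile in the fusion was examined as the mean control-partnered score in the first minus that in the second position. By limma 0 of the 17 tiles passed in the activation screen (0 at an unadjusted p under 0.05) and 0 in the repression screen (6 at an unadjusted p under 0.05), where 0% of the 79 domains passed. In the memory screen it was 0 of 17 (1 at an unadjusted p under 0.05), against 0% higher and 1.27% lower among the 79. In the repression screen ENSG00000141644 tile 47 had first-position scores of -2.42 and -2.58 and second-position scores of -1.17 and -1.68, a difference of -1.08 (SE 0.21; adjusted p = 0.072). ENSG00000170604 tile 0 went the other way, with -2.62 and -2.79 in the first and -3.38 and -3.69 in the second position (0.83, SE 0.17; adjusted p = 0.072). In both tiles the replicates of the 2 positions did not overlap, yet neither difference passed the threshold.

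The tiles were next set beside 8 activating partners taken from an earlier account of these data, and therefore no independent list. They were MYBA, a Myb-family transcription factor, FOXO3, a forkhead factor, NCOA2, a nuclear receptor coactivator, CRTC2, a coactivator of CREB, the WW domain of KIBRA, the KRAB domains of ZN473 and ZN597 and ENSG00000179833 tile 22. With control partners MYBA scored 4.16 ± 0.14 in the activation screen (SD, n = 2), FOXO3 3.77 ± 0.15 and NCOA2 3.48 ± 0.0095. With the 17 tiles as partners the mean score was 1.61 ± 0.16 for MYBA, 1.83 ± 0.28 for FOXO3 and 1.90 ± 0.0038 for NCOA2. These means pool tiles that lowered the activators with tiles that did not.

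A shift was computed for each tile as its mean score with these partners minus that of the controls with the same partners in the same position. By limma the shift was negative for 12 tiles and positive for 5, against 59.2% and 23.9% of the 71 domains tested. ENSG00000174197 tile 34 had the lowest shift, -3.85 (SE 0.21; replicates -4.18 and -3.53). Close to it were ENSG00000102974 tile 12 with -3.69 (-3.80 and -3.58), ENSG00000111642 tile 38 with -3.68 (-3.71 and -3.65), ENSG00000084093 tile 101 with -3.64 (-3.91 and -3.36), ENSG00000127124 tile 78 with -3.63 (-3.86 and -3.39), ENSG00000170604 tile 0 with -3.53 (-3.55 and -3.52) and ENSG00000141644 tile 47 with -3.31 (-3.29 and -3.33). The replicates of these 7 tiles overlapped in part, and none of the 7 had a median score above 0 with the activating partners. ENSG00000111642 tile 38 with the activators had a median score of -0.80, and ENSG00000102974 tile 12 one of -0.84.

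Other tiles that fell in repression left part of the activation in place. ENSG00000076108 tile 118 shifted the activators by -2.23 (replicates -2.15 and -2.31) and kept a median score of 0.70 with them, with 6 of 16 pairs called higher. ENSG00000069812 tile 10 shifted them by -1.72 (-1.49 and -1.94) with 7 of 15 pairs higher, and its pair with NCOA2 in the second position reached 4.17. ENSG00000088305 tile 10, the weakest repressor of the 10, shifted them by -1.33 (-1.34 and -1.32) with 9 of 16 pairs higher. By comparison, 14.9% of all 9063 pairs tested were called higher. ENSG00000188779 tile 4, which did not pass alone in repression, had a shift of -0.52 (-0.37 and -0.67), which did not pass without either replicate (adjusted p = 0.090 without replicate 1 and 0.30 without replicate 2).

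The 5 tiles with positive shifts had not passed alone in the repression screen. ENSG00000205571 tile 13 had 1.31 (SE 0.19; replicates 1.44 and 1.18), ENSG00000061273 tile 33 had 1.04 (1.26 and 0.83), ENSG00000085224 tile 242 had 1.04 (1.30 and 0.78), ENSG00000130706 tile 26 had 0.85 (0.98 and 0.73) and ENSG00000168769 tile 132 had 0.85 (0.97 and 0.74). Without activation replicate 1 the shift of ENSG00000130706 tile 26 was 0.73 and did not pass (adjusted p = 0.063). With ENSG00000205571 tile 13, 15 of 15 pairs with the activating partners were called higher, and with ENSG00000061273 tile 33 and ENSG00000085224 tile 242 the counts were 14 of 16 and 14 of 15. Of all pairs 14.9% were called higher. These partners were listed as activating and already averaged between 1.48 and 4.16 beside controls, so the counts alone set no tile apart. A positive shift means that these activators scored higher beside the tile than beside controls. Across the 17 tiles the repression effect and the shift of activators correlated with Pearson r = 0.83 and Spearman rho = 0.78. Without ENSG00000174197 tile 238, which stands apart and was left out after its values were seen, r was 0.93 and rho 0.85 over 16 tiles.

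The same activating partners beside controls stood, in the repression screen, between -1.79 ± 0.60 for FOXO3 and 0.46 ± 0.58 for ZN597, with MYBA at -1.54 ± 0.53 (SD, n = 2). The 17 tiles shifted them further down in 11 cases and up in 2 by limma, against 70% and 4.29% of the 70 domains tested. The lowest shifts were those of ENSG00000111642 tile 38 (-2.90; replicates -2.70 and -3.11) and ENSG00000102974 tile 12 (-2.77; -2.68 and -2.85). Both upward shifts belonged to tiles that did not pass alone, ENSG00000174197 tile 238 (1.26; 0.91 and 1.61) and ENSG00000205571 tile 13 (0.98; 1.13 and 0.83). The first of them did not pass without replicate 2 (0.91, adjusted p = 0.076). In all, 11 of the 13 calls remained without replicate 1 and 10 without replicate 2. In the memory screen 2 tiles shifted the activators down and 0 up (0 up at an unadjusted p under 0.05), against 18.3% and 0% of the 71 domains. They were ENSG00000076108 tile 118 (-0.72; -1.003 and -0.44) and ENSG00000170604 tile 0 (-0.66; -0.62 and -0.70).

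A further 8 partners were silencing domains, again from the earlier account: 3 KRAB variants, SUMO3, a small ubiquitin-like modifier, CBX1, a heterochromatin protein of the HP1 family, YAF2, a component of Polycomb repressive complexes, TOX, a high mobility group protein, and ENSG00000100307 tile 18. Beside controls they scored between -4.94 (the KRAB variant P21506) and -2.67 (TOX) in the repression screen, and beside the 17 tiles between -4.90 and -3.14. For 16 tiles the shift of these partners did not pass in limma, whether the tile was silencing by itself (ENSG00000111642 tile 38, -0.39, SE 0.19) or near 0 (ENSG00000205571 tile 13, -0.03, SE 0.13). In all, 1 tile was called higher and 0 lower in that screen (3 lower at an unadjusted p under 0.05), against 15.5% and 0% of the 71 domains. In the activation screen 0 tiles shifted the silencing partners (3 at an unadjusted p under 0.05), and 0% of the 70 domains did. In the memory screen it was again 0 of 17 (5 lower at an unadjusted p under 0.05), against 1.41% higher and 4.23% lower among 71 domains. Pooled over the 10 tiles that fell alone, 139 of 141 pairs with these partners were called lower in repression and the median score was -4.32 ± 0.36. Over the 7 tiles that did not, 97 of 107 were lower and the median was -4.32 ± 0.46. The background share of pairs called lower in this screen was 57.1%.

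The tile whose shift passed was ENSG00000174197 tile 238, which raised the silencing partners by 1.66 (SE 0.17; replicates 1.58 and 1.74; adjusted p = 0.0017). This tile stood near control pairs with nearly every partner. Only 4 of its 193 tested pairs were called in the activation screen and 15 of 194 in the repression screen, where 25.4% and 57.6% of all pairs were called. With the activating partners it had 0 calls among 15 pairs in activation, and their scores lay between -0.32 and 0.54, whereas the same activators beside controls averaged between 1.48 and 4.16. MYBA + tile 238 scored 0.33 and -0.14 in the 2 replicates, and NCOA2 + tile 238 scored -0.56 and -0.08. The shift was nearly the same with the tile first (-2.85) and second (-2.86).

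With silencing partners ENSG00000174197 tile 238 gave a mixed picture in the repression screen, where 9 of 15 pairs were lower. Its pairs with the KRAB variants stayed low in 5 of the 6 orders, from -3.32 to -5.72, and the 6th, with the Q3KP31 variant first, had replicate scores of 0.37 and -4.25. Both orders with SUMO3 stood far apart, at -4.49 and -5.88 with SUMO3 first and -0.21 and 0.61 with the tile first. TOX + tile 238 scored 2.03 and 2.49 and did not pass (adjusted p = 0.060), against -2.67 for TOX beside controls. Tile 34 of the same gene fell alone in repression, shifted the activators by -3.85 and left the silencing partners at their level (-0.24, SE 0.22). Thus 2 tiles of 1 gene differed alone in repression and with the silencing partners, while both shifted the activators down in the activation screen. The difference between both was not tested as such. Total reads of the members with tile 238 were 2920798, within the range of the other tiles (1495479 to 16200048).

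ENSG00000130706 tile 26 passed in neither direction alone, with an activation effect of 0.31 (SE 0.15; scores 0.31 and -0.05) and a repression effect of -0.27. In pairs it was called higher in activation in 53 of 197 pairs, the highest count of the 17 tiles, against 14.9% of all pairs. Of its 155 pairs without a control, 33 lay above the sum of both single scores, against 8.05% of all such pairs. Its largest called deviations with at least 5 reads in all libraries came from partners with SH3 or WW domains, small modules that bind proline-rich peptides. ABL1 + tile 26, with the SH3 domain of a tyrosine kinase, had 24968 bound and 1630 unbound reads in replicate 1 and 10377 and 17 in replicate 2. Its scores were 4.41 and 4.55, while the ABL1 domain scored 0.20 ± 0.0077 beside controls. The deviation was 4.53 (limma, SE 0.28; adjusted p = 0.0018), and in the opposite order it was 4.32 (SE 0.53).

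The WW domain of WWP2, an E3 ubiquitin ligase, scored -0.11 ± 0.35 beside controls and 4.54 and 4.0 in the replicates when it followed tile 26, a deviation of 4.32 (SE 0.28). In the other order the scores were 4.18 and 3.83 and the deviation 4.08. WBP4, a WW protein of the spliceosome, scored 3.86 and 4.08 after tile 26 and 3.28 and 2.47 before it. The set of all WW and SH3 domains was chosen after these values were seen and has no test of its own. Of 18 ordered pairs with 5 WW and 4 SH3 domains, 16 were called higher in activation, against 14.9% of all pairs. The 2 exceptions were both orders with BIN1 (-0.20 and 0.21). Above the sum lay 14, against 8.05% of all pairs without a control. Both orders with BTK were called higher but did not deviate from the sum (limma, adjusted p = 0.12 and 0.15). Beside controls KIBRA, which is also on the activating list, scored 1.60, ANM2 1.21, APBB1 0.88 and BTK 0.70. The others lay between -0.11 and 0.31. ITCH, a ligase related to WWP2, came next above BIN1 and BTK in level, with scores of 1.99 and 1.95 before it and 3.18 and 2.63 after it. Of the same 18 pairs 7 were lower in the repression screen, with a median of -0.58, where 57.1% of all pairs were lower. The unbound library of replicate 2 held 8 to 120 reads for these pairs in activation, which limits the precision of each replicate 2 score, and without either activation replicate the deviation of tile 26 + ABL1 did not pass (adjusted p = 0.080 and 0.066).

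ENSG00000205571 tile 13 gave the highest activation pair under the rule for named pairs, which takes called pairs without a control, with 1 sign in both replicates and at least 5 reads in all 4 libraries. FOXO3 + tile 13 had 29836 bound and 984 unbound reads in replicate 1 and 12539 and 6 in replicate 2, scores of 5.39 and 6.32 and an effect of 5.65 (edgeR, SE 0.43; adjusted p = 5.2e-06). The other 4 of the 5 highest pairs under that rule were ENSG00000061273 tile 33 + MYBA (5.37), ENSG00000205571 tile 13 + ZN473 (5.28), ENSG00000061273 tile 33 + ENSG00000179833 tile 22 (5.21) and ENSG00000130706 tile 26 + MYBA (5.11). All 5 joined an activating partner to a tile that did not pass alone in repression. In the repression screen 36 of 175 pairs with ENSG00000205571 tile 13 were lower, against 57.1% of all pairs. With the activating partners 1 of 15 was lower and 1 higher, against 57.1% and 0.497% of all pairs. This tile was nonetheless silenced by strong partners, with -6.19 for the KRAB variant Q3KP31 in first position and -6.12 for SUMO3 in first position.

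Over all tested pairs with a tile, 200 were called higher and 349 lower of 2847 in the activation screen, against 14.9% and 10.5% of all pairs. Only 139 were called without replicate 1 and 169 without replicate 2. Lowering was the less stable direction, with 15 and 21 of these calls, and with random sequences as the only controls 201 were higher and 146 lower. Among called pairs with at least 5 reads in all 4 libraries, the 5 lowest ran from ENSG00000102974 tile 12 + CREM (-3.24, SE 0.70; scores -2.66 and -3.88) through YAF2 + ENSG00000088305 tile 10 (-3.05), CREM + ENSG00000174197 tile 34 (-2.72) and the KRAB variant Q3KP31 + ENSG00000174197 tile 34 (-2.71) to TOX + ENSG00000111642 tile 38 (-2.41). None of these 5 passed when either activation replicate was left out, and their lowest library held between 17 and 38 reads.

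In the repression screen 1772 of 2842 pairs with a tile were lower and 12 higher, against 57.1% and 0.497% of all pairs. The share of lower pairs was 46.9% with control partners, 63.9% with other domains and 78.9% with silencer tiles, and the median scores were -0.91, -2.40 and -3.46. Among called pairs without a control and with at least 5 reads in all 4 libraries, the lowest was ATF1, a CREB-family factor, + ENSG00000174197 tile 34, with 11 bound and 45 unbound reads in replicate 1 and 6 and 638 in replicate 2 (-6.96, SE 1.02; scores -5.81 and -8.24). Next under the same limit on reads came ENSG00000205571 tile 13 + MPP8, a chromodomain protein (-6.20), the KRAB variant Q3KP31 + ENSG00000130706 tile 26 (-6.20) and + ENSG00000205571 tile 13 (-6.19), and SUMO3 + ENSG00000205571 tile 13 (-6.12). These scores rest on 6 to 197 bound reads, so their order carries little weight. Called pairs below that limit on reads could be as low, such as ENSG00000205571 tile 13 + CBX1 (-6.85, SE 1.27), chosen after its value was seen.

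Some called pairs with a silencing tile scored above control pairs in the repression screen. ENSG00000069812 tile 10 + DPF1, a subunit of neural BAF complexes, had 3180 bound and 115 unbound reads in replicate 1 and 1790 and 185 in replicate 2 (1.39, SE 0.45; scores 1.01 and 1.77). ENSG00000102974 tile 12 + DPY30, a subunit of histone H3 lysine methyltransferase complexes, reached 1.13 (SE 0.42; scores 0.75 and 1.51). Both tiles fell by more than 2 beside controls. Neither pair passed without replicate 2 (1.09, adjusted p = 0.19, and 0.82, adjusted p = 0.29). The other 3 of the 5 highest called pairs that met the limit on reads were ENSG00000061273 tile 33 + CXXC1 (1.34), ITCH + ENSG00000205571 tile 13 (1.33) and ZN597 + ENSG00000205571 tile 13 (1.10), whose tiles did not pass alone. Beside controls the partners in these 5 pairs had edgeR effects of 0.65 (DPF1), 0.47 (DPY30), 0.42 (CXXC1), 0.54 (ZN597) and -0.05 (ITCH) in repression. The median of the 79 domains was -1.21. Pairs that were not called could lie higher, as did TOX + ENSG00000174197 tile 238 (2.26).

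Each pair without a control was also set against the sum of the median control-partnered scores of both domains. In the activation screen 118 of 2177 pairs lay above the sum and 135 below it by limma, against 8.05% and 8.64% of all pairs, and 75 and 97 deviated in all without replicate 1 and 2. With the activating partners 111 of 250 lay below and 18 above, with a median deviation of -1.24 ± 0.22. The lowest called deviations, with at least 5 reads in all 4 libraries, were those of MYBA + ENSG00000102974 tile 12, which scored -1.78 where the sum was 3.86 (-5.64, SE 0.45), MYBA + ENSG00000141644 tile 47 (-5.36), MYBA + ENSG00000084093 tile 101 (-5.08), FOXO3 + ENSG00000174197 tile 34 (-4.94) and NCOA2 + ENSG00000174197 tile 238 (-4.86). In these 5 pairs the activator stood first, and the pair scored below 0.

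In the repression screen 604 of 2169 pairs lay above the sum and 60 below, against 23.2% and 6.24% of all pairs. Without replicate 2 the number was 317, and when the stronger of both single scores replaced the sum it was 201 (158 above and 43 below). With the silencing partners 124 of 248 lay above, with a median score of -4.34 where the median sum was -5.52. Under the same limit, the largest called deviation was that of ENSG00000102974 tile 12 + SSX2, which scored -0.44 against a sum of -7.10 (6.65, SE 0.30; adjusted p = 0.0034). Both parts of that pair were low beside controls, and the replicate deviations were 6.58 and 6.72. HXA13, a homeodomain factor, gave 3 of the other 4, with ENSG00000102974 tile 12 in both orders (5.40 and 5.32) and before ENSG00000170604 tile 0 (5.32). Those 3 pairs had as few as 9 to 23 reads in 1 library, and none passed against the stronger of both single scores (adjusted p from 0.050 to 0.059). The 5 largest called deviations downward under that limit were those of ENSG00000205571 tile 13 + MPP8 (-2.84), CREM + ENSG00000188779 tile 4 (-2.79), KMT2B + ENSG00000188779 tile 4 (-2.75), ATF1 + ENSG00000174197 tile 34 (-2.65) and BIN1 + ENSG00000188779 tile 4 (-2.60). None of these 5 passed without repression replicate 2.

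Ordered pairs of 2 different tiles among the 17 were tested 245 times in the repression screen, and 173 were lower, against 57.1% of all pairs of any domains. Where both tiles had fallen alone, 75 of 77 pairs were lower, with a median score of -3.79 ± 0.17. Where 1 of both had, 97 of 126 were lower, with a median of -2.98 ± 0.17. Where neither had, 1 of 42 was lower and the median was -0.08 ± 0.13. The classes come from the same screen, with other members. The lowest of these pairs, ENSG00000188779 tile 4 + ENSG00000102974 tile 12, scored -4.13 and -7.24. Over 109 pairs of different tiles, repression scores in both orders correlated with Pearson r = 0.885, with tiles shared between points. The same r was 0.438 over 111 pairs in activation and 0.178 over 119 pairs in memory.

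A tile paired with itself was called lower in the repression screen for the 10 tiles that fell alone and for none of the other 7. Most of the 7 nonetheless scored below control pairs in both replicates. ENSG00000085224 tile 242 had -1.67 and -1.07, and ENSG00000130706 tile 26 had -1.09 and -1.33. ENSG00000168769 tile 132 had -1.78 and -0.76, and ENSG00000188779 tile 4 had -1.34 and -1.17. The replicates of ENSG00000205571 tile 13 differed in sign (-0.45 and 0.31). Many of these self-pairs held far more reads than pairs of the same tile with a control. In repression replicate 1, ENSG00000061273 tile 33 with itself had 163149 bound reads, against 271864 summed over its 42 control-partnered members. ENSG00000127124 tile 78 (289 against 26475 over 25) and ENSG00000174197 tile 34 (397 against 34403 over 23) had no such excess. Its source was not tested. ENSG00000111642 tile 38 with itself had scores of -5.71 and -5.84 and ENSG00000102974 tile 12 -5.56 and -4.88, while ENSG00000061273 tile 33 had -1.20 and -0.55 and ENSG00000174197 tile 238 had 0.079 and 0.90. In the activation screen ENSG00000170604 tile 0 (-2.07, SE 0.61) and ENSG00000141644 tile 47 (-1.80, SE 0.59) fell with themselves. In the memory screen the replicates of these 17 pairs stood apart. Replicate 1 scores ran from 1.69 to 4.21 and replicate 2 scores from -1.08 to 0.36, so they did not overlap, and the lowest adjusted p was 0.12 by edgeR.

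In the memory screen 218 of 2932 pairs with a tile were lower and 5 higher, against 7.03% and 0.257% of all pairs. With edgeR 0 were called without replicate 1 and 126 without replicate 2, and DESeq2 called 471 with both. The named pairs called higher did not pass without either replicate. ENSG00000076108 tile 118 had the most low pairs, 77 of 198, among them 21 of 41 with controls and 15 of 16 with the silencing partners. For the other 16 tiles at most 22 pairs were lower. Among called pairs with at least 5 reads in all 4 libraries, the lowest was the KRAB variant P21506 + ENSG00000085224 tile 242, with 251 bound and 4286 unbound reads in replicate 1 and 385 and 2235 in replicate 2 (-3.30, SE 0.48; scores -3.46 and -3.09). Of the other 4 lowest, 3 held the same KRAB variant and 1 was ENSG00000102974 tile 12 + CBX1 (-3.03). ENSG00000205571 tile 13 + MYBA was the highest called pair under the same limit (2.36, SE 0.40; scores 2.10 and 2.69). The next 3 held KIBRA in the second position, after ENSG00000130706 tile 26 (2.04), ENSG00000061273 tile 33 (1.81) and ENSG00000168769 tile 132 (1.63). In the opposite order KIBRA + ENSG00000130706 tile 26 stood at -1.08 (scores -0.52 and -1.59) and did not pass. KIBRA itself stood at 0.69 ± 0.17 beside controls in that screen.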

How the data were processed

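Genomic DNA of sorted K562 cells was sequenced as domain pairs, and per the labels the authors aligned the reads of each position with Bowtie2 (version not given in the sources used here) after trimming 30 bases from each end. They deposited the raw count of read pairs per member and library, which is what was used here. No molecular identifiers are stated, so errors cover counting and the spread between 2 replicates. All domains in the files were kept.

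Counts of all members past the read filter in at least 1 screen were fitted with edgeR 4.0.16 (quasi-likelihood, R 4.3.3) over the 12 libraries with a term per culture (screen by replicate) as a block, which leaves 3 residual degrees of freedom, and TMM factors from pairs of 2 control domains. The block pairs the bound and unbound fraction of 1 culture. Single-tile effects came from counts summed over control-partnered members, in a separate fit of the 79 domains with the same terms. Standard errors are the log2 effect divided by the root of its F. Scores were log2 of bound over unbound shares with a floor of 5 reads, centred on control pairs, and gave replicate values, deviations, shifts and position differences, tested with limma 3.58.1. Medians over partners required 5 partners. P-values were adjusted (Benjamini-Hochberg) over all features of a screen and called at 0.05. DESeq2 1.42.0, other scalings, filters, floors and controls and each replicate left out were alternatives, and the partner shifts by position were added after seeing the data. The fits were tested on simulated data, and Python 3.11.15 joined the tables.

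The tiles, both partner lists, the tests and the rule for named pairs were chosen with earlier results of these data known. All tiles are named. Named pairs are the 5 highest and 5 lowest called pairs of a screen, without control partners, with 1 sign in both replicates and at least 5 reads in all 4 libraries, likewise for deviations from the sum. The Ensembl identifiers matched no entry of the RefSeq table, and no tile sequence is printed.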

Additional observations from a re-analysis of the deposited data

Results flagged for a closer look

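For 9 tiles the effect beside controls differed between the memory and the repression screen, tested as the difference of both coefficients in the edgeR fit. The difference, memory minus repression, was 3.02 for ENSG00000111642 tile 38, 2.66 for ENSG00000102974 tile 12, 2.62 for ENSG00000127124 tile 78 and 2.54 for ENSG00000084093 tile 101. It was 2.44 for ENSG00000170604 tile 0, 1.94 for ENSG00000069812 tile 10 and 1.79 for ENSG00000076108 tile 118. ENSG00000174197 tile 34 had 1.61 and ENSG00000141644 tile 47 had 1.51. In each of the 9 the value was closer to control pairs in the memory screen.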

How the results depend on the processing

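The counts of called tiles in the repression screen, of tiles that shifted activating partners in activation and repression, and of tiles that shifted silencing partners in repression stayed within 1.5 times under the alternatives run that keep control pairs as the scale. The other shift counts were not recomputed. Under total counts, which move the 0 of each screen, 17 tiles were called in activation (0 higher, 17 lower), 16 in repression (8 and 8) and 15 in memory minus repression (7 and 8), while 1957 pairs were called in activation (145 higher, 1812 lower) and 60 in memory. TMM over all members called 76 pairs in memory, with median moves of the tile effects of 0.09 (activation), 1.98 (repression) and 0.56 (memory). With random controls only 347 pairs were called in activation, and DESeq2 called 471 pairs in memory. Limma on mean scores called 1 tile in memory, and the second position alone called 4 tiles in activation. With the stronger of both single scores in place of the sum, 201 pairs deviated in repression. Leaving out 1 replicate of a screen, whose remaining replicate is then assumed to vary like the other libraries, gave 139 to 169 called pairs in activation, 0 to 126 in memory, 75 to 97 pairs off the sum in activation, 317 to 463 pairs off the sum in repression, 2 called tiles in activation and 1 in memory. Without the replicate block no count moved by over 1.5 times, with 573 called pairs in activation, 1800 in repression and 256 in memory, and 10, 10 and 8 called tiles. Without the block ENSG00000141644 tile 47 passed in activation (-0.32), while ENSG00000174197 tile 34 in memory (-0.41) and ENSG00000102974 tile 12 + DPY30 in repression (1.10) did not. Same-numbered replicates of different screens were not paired.

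Among tile effects called under either setting, the signs that turned did so under the scalings that move the 0, apart from ENSG00000111642 tile 38 in memory with the tile in the first position only (0.24). Signs of effects called under neither setting also turned and are not listed. TMM over all members gave, in memory, 0.097 for ENSG00000069812 tile 10, 0.078 for ENSG00000088305 tile 10, 0.076 for ENSG00000102974 tile 12, 0.18 for ENSG00000111642 tile 38, 0.48 for ENSG00000127124 tile 78, 0.44 for ENSG00000168769 tile 132, 0.091 for ENSG00000170604 tile 0, 0.52 for ENSG00000174197 tile 238, 0.15 for its tile 34 and 0.43 for ENSG00000188779 tile 4. Total counts gave, in memory, 0.33 for ENSG00000061273 tile 33, 0.036 for ENSG00000069812 tile 10, 0.017 for ENSG00000088305 tile 10, 0.015 for ENSG00000102974 tile 12, 0.12 for ENSG00000111642 tile 38, 0.42 for ENSG00000127124 tile 78, 0.37 for ENSG00000168769 tile 132, 0.030 for ENSG00000170604 tile 0, 0.46 for ENSG00000174197 tile 238 and 0.089 for its tile 34. In repression TMM over all members and total counts gave 1.77 and 1.64 for ENSG00000085224 tile 242, 1.16 and 1.02 for ENSG00000088305 tile 10, 1.71 and 1.57 for ENSG00000130706 tile 26 and 1.75 and 1.62 for ENSG00000188779 tile 4. Memory minus repression became -1.08 and -1.01 for ENSG00000088305 tile 10 and -1.33 and -1.25 for ENSG00000188779 tile 4. In activation total counts gave -0.93 for ENSG00000061273 tile 33, -0.75 for ENSG00000130706 tile 26, -1.05 for ENSG00000168769 tile 132, -0.83 for ENSG00000174197 tile 238, -1.05 for ENSG00000188779 tile 4 and -0.56 for ENSG00000205571 tile 13.

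Depth limits the activation screen most, through its unbound library of replicate 2, and the lowest scores of the repression screen, where bound reads of a pair can be below 10.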

Other observations

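The 9 WW and SH3 partners examined with ENSG00000130706 tile 26 were also set beside the other 16 tiles, as a description chosen after the values were seen. In the activation screen 14.9% of all pairs were called higher, and 8.05% of all pairs without a control lay above the sum. Of 18 ordered pairs in the activation screen, 6 were higher with ENSG00000168769 tile 132 (5 above the sum), 4 with ENSG00000085224 tile 242 (4 above the sum), 2 with ENSG00000076108 tile 118, 2 with ENSG00000205571 tile 13 and 1 each with ENSG00000061273 tile 33 and ENSG00000188779 tile 4. ENSG00000130706 tile 26 had a median score of 3.61 with these partners, against 0.45 for ENSG00000168769 tile 132 and 0.34 for ENSG00000085224 tile 242.

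The 6 silencer tiles of the other genes, which are not among the 17, all fell beside controls in the repression screen, from -1.38 (ENSG00000179833 tile 22) to -3.81 (ENSG00000100307 tile 18), so the 7 tiles that did not pass are all among the 17 described here. ENSG00000179833 tile 22 is also on the activating list and scored 3.41 beside controls in the activation screen.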
